A study of Homo sapiens with 17 samples.

Results

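RNA of the BCL2 family, the genes that set whether a mitochondrion holds or releases its death-promoting proteins, was followed through oncogene-induced senescence and SMARCA4 knockdown. The 10 members were taken by name from the gene rows of the count tables: the survival genes BCL2, BCL2L1, BCL2L2, MCL1 and BCL2A1, the pore-forming genes BAX and BAK1, and the BH3-only genes BBC3, PMAIP1 and BCL2L11. All 10 were among the 62754 genes listed, and all 10 were among the 19473 genes that passed the filter on low counts and were tested.

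The cells were IMR90 ER:RAS, a human lung fibroblast line made by retroviral infection to carry an activated RAS joined to the hormone-binding part of the oestrogen receptor. 4-hydroxytamoxifen (4OHT) switches the fusion on and drives the cells into senescence, and DMSO is its solvent control. The siRNA was transfected before 4OHT or DMSO was added and either had no target (siNT) or targeted SMARCA4 (siSMARCA4), which encodes the motor subunit of SWI/SNF, a remodeller of chromatin. RNA was taken on day 7. There were 5 libraries of DMSO siNT, 6 of 4OHT siNT and 6 of 4OHT siSMARCA4. All of them carried the transgene and an siRNA, and no library combined DMSO with siSMARCA4. The labels gave each library a number, 2 or 4, after the name of its siRNA and a tag ending in V or VM, and state the meaning of neither. The number is called the siRNA number here for its place in the label, and whether it names an siRNA sequence or something else is not known. The 6 libraries of 4OHT siNT were all VM, against 3 of 6 of 4OHT siSMARCA4 and 3 of 5 of DMSO siNT. Within 4OHT no siNT library carries tag V, and the siNT libraries tagged V are both from DMSO. Both of these carry number 2 (2-1V and 2-2V). The V libraries of 4OHT siSMARCA4 are 2-3V, 4-2V and 4-3V. Number and tag are thus partly confounded, also in fits within 1 siRNA number. The labels do not say that libraries came from separate cultures, and the p-values then measure only the spread between these libraries, which may be technical.

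Survival members bind and hold back their death-promoting relatives on the outer mitochondrial membrane. BH3-only proteins are the stress sensors of the family: they occupy the groove of the survival members or switch on BAX and BAK directly. Activated BAX and BAK assemble pores through which cytochrome c escapes to the apoptosome and its caspases. Senescent cells are known for resisting apoptosis and for leaning on survival members, which is why compounds that fill the groove of these proteins are used to kill them.

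Library totals lay between 39.1 and 68.98 M counts (M, 1e6). Levels are given as CPM, counts per M counts of a library scaled by TMM factors between 0.949 and 1.08. SMARCA4 itself was at 198 ± 19.2 CPM (SD, n = 5) in DMSO siNT, 268 ± 13.2 (n = 6) in 4OHT siNT and 88.0 ± 22.8 (n = 6) in 4OHT siSMARCA4, where every library lay below every siNT library. Fibroblast markers were abundant, but 7 of 8 were called lower in each comparison between groups, and their summed level ran from 22839 to 27432 CPM in DMSO siNT, 13347 to 17446 in 4OHT siNT and 7492 to 10773 in 4OHT siSMARCA4. The 5 epithelial markers summed to 101 to 139, 66.2 to 83.4 and 35.9 to 59.0 CPM in the same order, with CDH1 and EPCAM near 0. The 4 endothelial markers summed to 0.855 to 1.95, 3.95 to 5.93 and 2.05 to 4.46 CPM, and the 5 leukocyte markers summed to at most 0.371 CPM in any library. The part of these shifts in the members' values was not tested, and in bulk RNA fewer cells of a type and less RNA per cell cannot be told apart.

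In senescence most members were called, as were most genes tested. Between 4OHT siNT and DMSO siNT, 7 of the 10 members were called (edgeR's quasi-likelihood test, adjusted p under 0.05): MCL1, BCL2A1, BCL2L1, BCL2L2, BAK1 and PMAIP1 rose, and BCL2 fell. DESeq2 also called 7. This was a broad change of the transcriptome, in which 54.4% of all genes tested were called, 27.0% higher and 27.4% lower. The libraries of the groups did not overlap for the same number of members, 7 of 10, against 39.6% of all genes. The median log2 fold change was 0.43 over the members and 0.00 over all genes tested.

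BCL2A1, a short-lived survival protein best known from leukocytes and as a target of NF-kB, changed most. Its gene (chr15:79960892-79971196, minus strand, GRCh38) had 13, 4, 6, 7 and 17 counts in the 5 DMSO siNT libraries, or 0.0796 to 0.285 CPM, and 622 to 1148 counts in the 6 4OHT siNT libraries, whose lowest, median and highest levels were 13.7, 16.9 and 20.4 CPM. Every senescent library stood far above every control library. The rise was 99.4-fold (95% interval 65.0 to 152; log2 6.64, SE 0.29, adjusted p = 1.47e-12). It rests on few counts in DMSO siNT, where the SD was 52.2% of the mean. Of the leukocyte markers, CD3E was at 0 CPM in all libraries of both groups and PTPRC averaged 0.0443 and 0.0544 CPM. CD14, the highest of them, averaged 0.163 CPM in DMSO siNT and 0.204 CPM in 4OHT siNT. Which cells the BCL2A1 RNA came from was not tested.

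MCL1, a survival protein of fast turnover that binds PMAIP1 and BAK1, was the member with the highest level per length in senescent cells. Its gene lies at chr1:150560895-150579738, minus strand. DMSO siNT libraries read 269, 232, 264, 286 and 269 CPM, and 4OHT siNT libraries had a lowest, median and highest level of 826, 904 and 995 CPM. The groups were far apart, with a rise of 3.45-fold (log2 1.79, SE 0.084, adjusted p = 3e-12).

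BCL2L1 and BCL2L2 encode BCL-XL and BCL-W, survival proteins with a membrane anchor, and rose only modestly. BCL2L1 (chr20:31664452-31723989, minus strand) was at 141, 136, 152, 161 and 170 CPM in DMSO siNT and at 179, 181 and 185 CPM (lowest, median, highest) in 4OHT siNT, a rise of 1.20-fold (log2 0.26, SE 0.076, adjusted p = 0.00701). The control libraries spread by 9.22% of their mean and the senescent ones by 1.43%, and the highest control lay just below the lowest senescent library. This call was lost without DMSO siNT 2-1V (adjusted p = 0.05) or 2-2V (0.0583), the V libraries of that group, and under 5 of 11 other settings. The log2 fold change was 0.10 within siRNA number 4 (adjusted p = 0.559), 0.15 within VM libraries (adjusted p = 0.131), 0.15 with library totals in place of TMM (adjusted p = 0.0777), 0.21 with the replicate block by tag (adjusted p = 0.052) and 0.23 without the filter on low counts (adjusted p = 0.0618). BCL2L2 (chr14:23298790-23311751, plus strand) was at 38.8, 44.6, 51.4, 52.7 and 51.0 CPM in DMSO siNT and at 55.2, 65.9 and 74.1 CPM in 4OHT siNT (log2 0.46, SE 0.093, adjusted p = 0.00038). Its reads are uncertain, because 16.8% of its exon bases are shared on the same strand with the read-through gene BCL2L2-PABPN1.

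BCL2, the founding survival gene of the family, went the other way. Its gene (chr18:63123346-63320128, minus strand) was at 3.68, 3.00, 1.89, 2.81 and 1.46 CPM in DMSO siNT and at 0.454, 0.966 and 1.33 CPM in 4OHT siNT. All senescent libraries lay below all controls, at 0.353-fold (95% interval 0.231 to 0.538; log2 -1.50, SE 0.29, adjusted p = 0.000225). BCL2 was thus a low transcript throughout, with 25 to 65 counts per library in 4OHT siNT.

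Among the pore formers, BAK1 (chr6:33572547-33580293, minus strand), which sits on the outer membrane in resting cells, rose from 23.3, 24.8, 32.3, 30.0 and 34.8 CPM in DMSO siNT to a lowest, median and highest level of 48.7, 51.2 and 59.4 CPM in 4OHT siNT, without overlap (log2 0.86, SE 0.098, adjusted p = 5.44e-07). BAX (chr19:48954815-48961798, plus strand), which moves from the cytosol to the membrane, was at 129 ± 18.0 CPM (n = 5) and 149 ± 12.1 CPM (n = 6), with overlapping libraries and a log2 fold change of 0.22 (95% interval -0.02 to 0.46, adjusted p = 0.12). BAX was called higher in 2 of 22 alternative fits, within siRNA number 2 (log2 0.32, adjusted p = 0.00647) and without DMSO siNT 4-3VM (log2 0.30, adjusted p = 0.0336). Its lowest value was -0.0022, within number 4.

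Of the BH3-only genes, PMAIP1 passed the test. PMAIP1 (chr18:59899996-59904305, plus strand) encodes NOXA, which binds MCL1 and BCL2A1. It was at 72.8, 85.9, 98.2, 90.9 and 111 CPM in DMSO siNT and at 117, 150 and 188 CPM in 4OHT siNT, the highest control again lying just below the lowest senescent library (log2 0.71, SE 0.12, adjusted p = 7.17e-05). Within siRNA number 4 the call was lost (log2 0.30, adjusted p = 0.14). BBC3 (chr19:47220822-47232766, minus strand), which encodes PUMA, a broad binder of survival members, was at 12.2 ± 1.79 and 16.2 ± 1.29 CPM with overlapping libraries and missed the threshold (log2 0.40, 95% interval 0.00055 to 0.81, adjusted p = 0.0846). It was called higher in 2 of 22 alternative fits, within siRNA number 2 (log2 0.48, adjusted p = 0.00123) and with the 2 groups fitted alone (log2 0.41, adjusted p = 0.00337). BCL2L11 (chr2:111119378-111168444, plus strand), which encodes BIM, was at 1.78 ± 0.909 and 1.77 ± 0.165 CPM (log2 -0.0045, 95% interval -0.50 to 0.49, adjusted p = 0.989). Its DMSO siNT libraries were themselves far apart, at 3.28 and 1.87 CPM in the V libraries against 0.923 to 1.53 CPM in the VM libraries. Of its exon bases, 10.8% are covered on the opposite strand by MIR4435-2HG, at 72.3 CPM, and the counting used strand. Within VM libraries the sign turned and BCL2L11 was called higher (log2 0.48, adjusted p = 0.0342), the 1 of 22 alternative fits that called it.

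**Figure D1:**
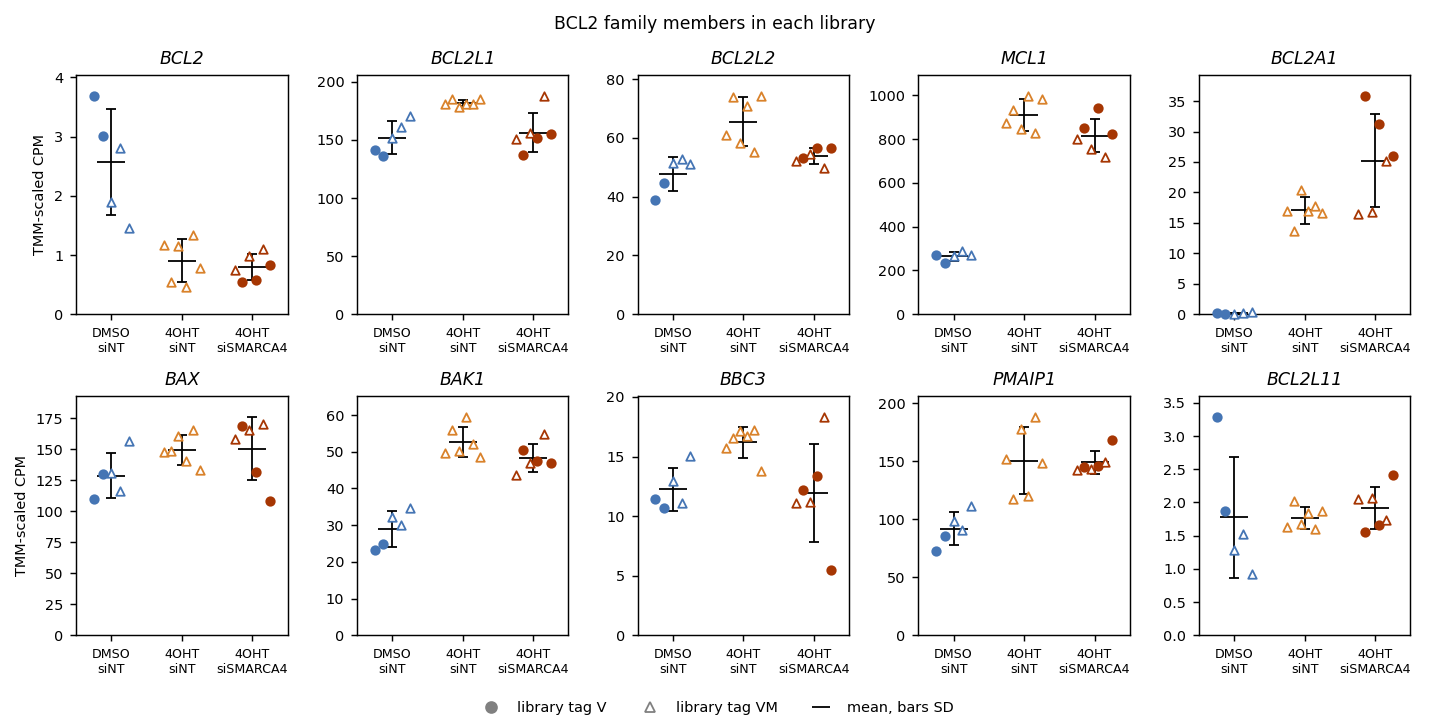
TMM-scaled CPM (vertical axes, linear and starting at 0) of the 10 members in each library by group, with filled circles for tag V, open triangles for tag VM, and mean and SD in black. MCL1, BCL2A1 and BAK1 are higher in both 4OHT groups without overlap with DMSO siNT, BCL2 is lower, and BCL2A1 in 4OHT siSMARCA4 is split, with V libraries at 26.0 to 35.8 CPM and VM libraries at 16.4 to 25.1.

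The stretches just upstream of the start sites are shown for BCL2A1, PMAIP1 and BAK1, since these members were higher in both 4OHT groups and their RefSeq and GENCODE starts lie together. RefSeq promoters (GRCh38.p14) were matched for 8 members, and BCL2L2 and MCL1 had none. In the 250 bases before the start, both strands were searched for 4 motifs. They were AP-1 (TGANTCA, in 6.57% of 35116 promoters), CRE (TGACGTCA, 1.65%), FOXO (TGTTTAC, 2.98%) and a loose NF-kB pattern. The NF-kB pattern has 10 letters, several of them free to be any base, and was found in 22.6% of promoters. Whether its matches meet a stricter NF-kB consensus was not tested. Sequences run 5′ to 3′ on the strand of the gene, and capitals mark the motif matches.
BCL2A1, chr15:79971197-79971446, minus strand: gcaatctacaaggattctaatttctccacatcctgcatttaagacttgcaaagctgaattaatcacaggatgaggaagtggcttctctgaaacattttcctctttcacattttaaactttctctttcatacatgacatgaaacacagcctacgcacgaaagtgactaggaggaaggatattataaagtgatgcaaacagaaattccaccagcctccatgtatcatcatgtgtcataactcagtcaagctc
PMAIP1, chr18:59899746-59899995, plus strand: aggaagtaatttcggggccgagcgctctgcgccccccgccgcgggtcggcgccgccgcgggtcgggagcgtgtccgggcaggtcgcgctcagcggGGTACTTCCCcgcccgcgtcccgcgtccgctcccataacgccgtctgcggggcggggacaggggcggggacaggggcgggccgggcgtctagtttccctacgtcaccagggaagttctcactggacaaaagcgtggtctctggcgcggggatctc
BAK1, chr6:33580294-33580526, minus strand: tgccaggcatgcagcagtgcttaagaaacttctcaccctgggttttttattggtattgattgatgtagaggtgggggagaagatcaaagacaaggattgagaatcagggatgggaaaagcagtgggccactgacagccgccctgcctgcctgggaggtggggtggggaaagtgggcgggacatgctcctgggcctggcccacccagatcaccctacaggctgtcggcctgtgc

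The BCL2A1 and BAK1 stretches held none of the 4 motifs. The capitals in PMAIP1 mark a match to the loose NF-kB pattern, 155 bases before the start. The last 17 bases before the RefSeq start of BAK1 are left out, as GENCODE places them in the gene. Elsewhere in the family, BCL2 had a match to the loose NF-kB pattern, BBC3 an AP-1 match and BCL2L11 a FOXO match, and BCL2L1 and BAX had none. The windows of BCL2 and BCL2L11 lie wholly inside the gene as GENCODE places it. A match is only a run of letters, and no match says only that these letters are not in this window.

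After SMARCA4 knockdown in senescent cells 3 of the 10 members were called, a share near that over all genes. Each changed by less than 1 on the log2 scale. Between 4OHT siSMARCA4 and 4OHT siNT, BCL2A1 was called higher and BCL2L1 and BCL2L2 lower, which is 3 of 10 members (also 3 by DESeq2), where 24.2% of all genes were called, 10.4% higher and 13.8% lower. No member had groups that did not overlap, against 12.0% of all genes. The median log2 fold change was -0.14 over the members and -0.02 over all genes. All 3 calls were lost with V or VM as a covariate and with a replicate block by tag.

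BCL2A1 was at a lowest, median and highest level of 16.4, 25.6 and 35.8 CPM after knockdown, against 13.7, 16.9 and 20.4 CPM in 4OHT siNT (1.48-fold, 95% interval 1.14 to 1.93; log2 0.57, SE 0.18, adjusted p = 0.0299). The V libraries of 4OHT siSMARCA4 read 35.8, 31.2 and 26.0 CPM and the VM libraries 16.4, 16.8 and 25.1 CPM, so that 2 of 3 VM libraries lay inside the siNT range. Within VM libraries the log2 fold change was 0.20 (adjusted p = 0.421), and with V or VM as a covariate it was 0.25 (adjusted p = 0.339). The call was also lost with the replicate block by tag (log2 0.23, adjusted p = 0.415) or by digit (0.50, adjusted p = 0.0659) and within siRNA number 2 (0.36, adjusted p = 0.377). Leaving out 4OHT siSMARCA4 2-3V, 4-2V or 4-2VM, or 4OHT siNT 2-1VM, 4-1VM, 4-2VM or 4-3VM, also took the adjusted p above the threshold, to at most 0.0873.

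BCL2L1 was at 137, 153 and 188 CPM (lowest, median, highest) after knockdown, against 179, 181 and 185 CPM in 4OHT siNT (0.858-fold, 95% interval 0.772 to 0.953; log2 -0.22, SE 0.072, adjusted p = 0.0328). Of the knockdown libraries, 5 lay below all siNT libraries and 4-2VM lay above them. The adjusted p stayed under the threshold only without 4OHT siNT 2-2VM, 4OHT siSMARCA4 4-2VM or 4OHT siSMARCA4 4-3V (3 of 12 libraries left out in turn) and reached 0.079 without 2-3V. The call was also lost under 6 of 11 other settings. The log2 fold change was -0.12 within siRNA number 4 (adjusted p = 0.578) and -0.13 within VM libraries (adjusted p = 0.242), with V or VM as a covariate (0.166) and with the replicate block by tag (0.262). It was -0.18 with library totals in place of TMM (adjusted p = 0.0601) and without the filter on low counts (0.227).

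BCL2L2 was at 49.7, 53.7 and 56.6 CPM after knockdown, against 55.2, 65.9 and 74.1 CPM in 4OHT siNT (0.820-fold, 95% interval 0.721 to 0.933; log2 -0.29, SE 0.089, adjusted p = 0.0251). The 4OHT siNT libraries fell into a lower set labelled with number 2 (61.1, 58.2 and 55.2 CPM) and a higher set labelled with number 4 (73.8, 70.8 and 74.1 CPM). Within number 4 the log2 fold change was -0.39 (adjusted p = 0.0466) and within number 2 it was -0.09 (adjusted p = 0.529). The call held within VM libraries (log2 -0.31, adjusted p = 0.0321) and was lost with V or VM as a covariate (-0.24, adjusted p = 0.0868), with the replicate block by tag (-0.29, adjusted p = 0.0671) and without the filter on low counts (-0.25, adjusted p = 0.106). It was also lost without 4OHT siNT 4-1VM, 4-2VM or 4-3VM or without 4OHT siSMARCA4 2-1VM or 4-2VM, with adjusted p between 0.0508 and 0.0643. The read-through gene BCL2L2-PABPN1 was at 71.2 CPM in 4OHT siNT and 73.8 CPM after knockdown.

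The other 7 members were not called. MCL1 was at 720, 814 and 940 CPM after knockdown, overlapping 4OHT siNT (log2 -0.16, 95% interval -0.32 to 0.00, adjusted p = 0.141). MCL1 was called lower in 1 of 23 alternative fits, within VM libraries (log2 -0.25, adjusted p = 0.0401). BBC3 had the widest knockdown group relative to its mean (CV 34.7%), from 5.45 CPM in 4-3V to 18.3 CPM in 4-2VM around a median of 11.7, against 13.8 to 17.2 CPM in 4OHT siNT (log2 -0.44, SE 0.18, adjusted p = 0.0887). It was called lower in 2 of 23 alternative fits, without 4OHT siSMARCA4 4-2VM (log2 -0.60, adjusted p = 0.0176) and within siRNA number 2 (log2 -0.50, adjusted p = 0.00386). PMAIP1 was at 149 ± 9.61 CPM against 150 ± 29.0 (log2 -0.01, 95% interval -0.26 to 0.23), BAX at 150 ± 25.1 against 149 ± 12.1 (log2 0.01, -0.22 to 0.24), BAK1 at 48.4 ± 3.80 against 52.7 ± 4.16 (log2 -0.12, -0.32 to 0.07), BCL2 at 0.796 ± 0.222 against 0.906 ± 0.364 (log2 -0.19, -0.79 to 0.42) and BCL2L11 at 1.92 ± 0.321 against 1.77 ± 0.165 (log2 0.11, -0.36 to 0.58), each with n = 6 a group and overlapping libraries.

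Set against DMSO siNT, the senescent knockdown libraries showed 5 of 10 members called: MCL1, BCL2A1, BAK1 and PMAIP1 higher and BCL2 lower, all 5 without overlap. Over all genes 55.1% were called, 26.5% higher and 28.6% lower, and 36.3% had groups without overlap. BCL2A1 was 147-fold higher (95% interval 95.9 to 226), MCL1 3.09-fold higher (adjusted p = 8.91e-12), BAK1 higher by 0.74 on the log2 scale (adjusted p = 3.35e-06), PMAIP1 by 0.70 (8.4e-05), and BCL2 was at 0.310-fold (6.8e-05). BCL2L1 (log2 0.04, 95% interval -0.12 to 0.20) and BCL2L2 (0.17, -0.02 to 0.37), which rose in senescence, were not called here. BCL2L2 was called higher in 1 of 22 alternative fits, within siRNA number 2 (log2 0.25, adjusted p = 0.0392). Over all libraries BAX was at 0.23 (adjusted p = 0.103). It was called higher in 3 of 22 alternative fits: within number 2 (log2 0.42, adjusted p = 0.00127), without DMSO siNT 4-3VM (0.31, adjusted p = 0.0274) and without 4OHT siSMARCA4 4-3V (0.31, adjusted p = 0.0124). BCL2L11 was called higher in 1 of 22 alternative fits, within VM libraries (log2 0.64, adjusted p = 0.018), against 0.11 over all libraries (adjusted p = 0.727). This comparison shares its DMSO siNT libraries with the first and its 4OHT siSMARCA4 libraries with the second.

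**Figure D2:**
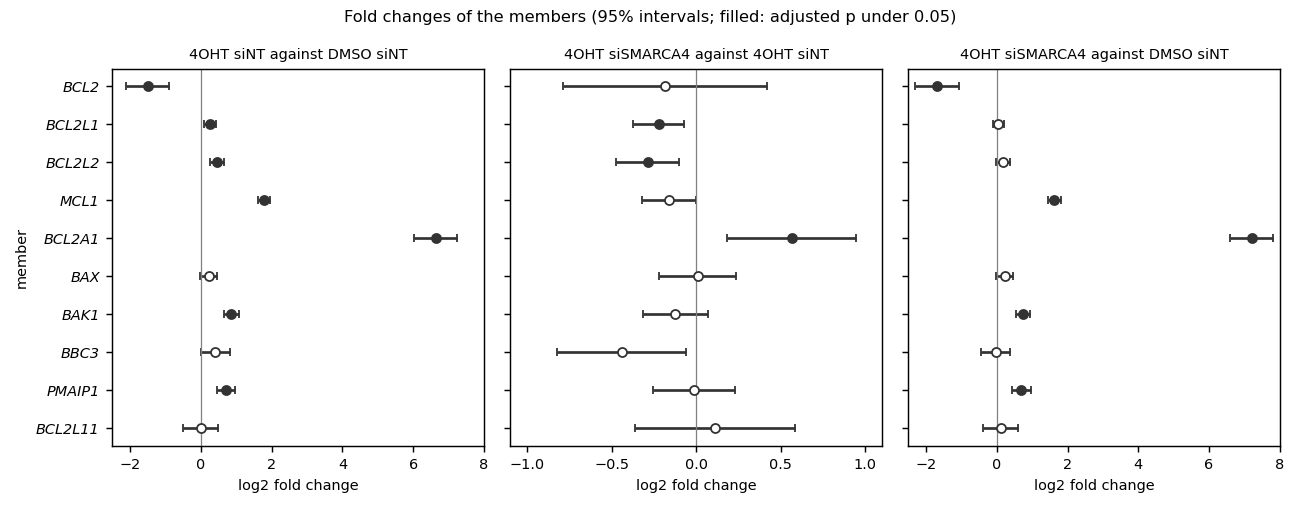
Log2 fold changes of the 10 members (horizontal axes) with 95% intervals in the 3 comparisons, filled where the adjusted p was under 0.05; the middle panel has a narrower axis. BCL2A1 and MCL1 stand out at 6.64 and 1.79 in senescence, while all changes after knockdown lie between -0.44 and 0.57.

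Between the siSMARCA4 libraries numbered 2 and those numbered 4, edgeR and DESeq2 called 0 of 10 members, with 0.0462% of all genes called by edgeR. In edgeR 0 of 10 members and 2170 of 19473 genes were at an unadjusted p under 0.05. With 3 libraries a side this does not show that the 2 numbers act alike. The 95% interval was -1.02 to 0.75 (log2) for BCL2, -0.79 to 0.28 for BCL2A1, -0.36 to 0.05 for BCL2L1, -0.30 to 0.24 for BCL2L2 and -0.27 to 0.18 for MCL1. Against all 4OHT siNT libraries, number 2 gave BCL2L1, which was lower, as the 1 member called (log2 -0.30, adjusted p = 0.0176, with 22.7% of all genes called), and number 4 gave BCL2A1, which was higher, as the 1 member called (log2 0.69, adjusted p = 0.048, with 10.9% of all genes called). Number 2 and number 4 of siNT within 4OHT, a contrast added after the values were seen, gave 0 of 10 members called by edgeR. Over all genes 4.68% were called. An unadjusted p under 0.05 was reached by 4340 of 19473 genes and by 3 of 10 members. The 3 were BCL2L2 (log2 -0.32, adjusted p = 0.0553), PMAIP1 (0.43, adjusted p = 0.0599) and BCL2 (1.03, adjusted p = 0.0928). PMAIP1 read 152, 178 and 188 CPM with number 2 and 117, 120 and 148 CPM with number 4. The senescence response of PMAIP1 differed between the numbers by 0.67 on the log2 scale (adjusted p = 0.0599). In this contrast 2.10% of all genes and 0 of 10 members were called. At an unadjusted p under 0.05 it had 5080 of 19473 genes and 2 of 10 members. Both DMSO siNT libraries tagged V carry number 2, so number and tag are partly confounded in it. The part of the tag was not tested.

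Levels of different genes were set side by side per length, as TMM-scaled CPM per kb of the union of exons. In DMSO siNT the order began with BAX (49.7 ± 6.94), MCL1 (42.4 ± 3.19), PMAIP1 (42.0 ± 6.57) and BCL2L1 (36.2 ± 3.34), each overlapping the next, and then fell to BAK1 (13.1 ± 2.2), BCL2L2 (9.86 ± 1.22), which overlapped, and BBC3 (3.84 ± 0.562). BCL2L11, BCL2 and BCL2A1 closed it at 0.264, 0.204 and 0.167 CPM per kb, with overlapping libraries. In 4OHT siNT MCL1 led alone at 146 ± 11.6 CPM per kb, ahead of PMAIP1 (68.8 ± 13.3), BAX (57.7 ± 4.67), BCL2L1 (43.4 ± 0.619) and BAK1 (23.8 ± 1.88), while BCL2A1 had moved from last to the sixth place (17.1 ± 2.19). PMAIP1 and BAX overlapped, as did BCL2A1 and BCL2L2 (13.5 ± 1.73). After knockdown MCL1 led again (131 ± 12.3), and PMAIP1 (68.2 ± 4.40), BAX (58.1 ± 9.72), BCL2L1 (37.2 ± 4.00), BCL2A1 (25.4 ± 7.73) and BAK1 (21.9 ± 1.72) followed, each overlapping the next. The order depends in part on the length used. With the longest transcript as the length, MCL1 still led in 4OHT siNT (200) and after knockdown (179). BAX then stood above PMAIP1 in both (110 against 79.2, and 111 against 78.5). In DMSO siNT BAX (80.9 to 115) then no longer overlapped MCL1 (51.0 to 63.0).

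Within the 5 survival members, MCL1 made up 47.8 ± 1.85% of the summed level per kb in DMSO siNT, 66.3 ± 1.57% in 4OHT siNT and 64.0 ± 2.77% in 4OHT siSMARCA4. The share of BCL2L1 went from 40.7 ± 1.30% to 19.7 ± 0.985% and 18.3 ± 2.83%, although its own level did not fall in senescence. BCL2A1 went from 0.186 ± 0.0922% to 7.81 ± 1.27% and 12.2 ± 3.02%, BCL2L2 from 11.1 ± 0.996% to 6.12 ± 0.493% and 5.44 ± 0.378%, and BCL2 was at 0.233%, 0.0332% and 0.0314%. With the longest transcript as the length, the MCL1 shares were 48.9%, 67.6% and 65.5%. These shares carry no test. They are shares of RNA, and protein was not measured.

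**Figure D3:**
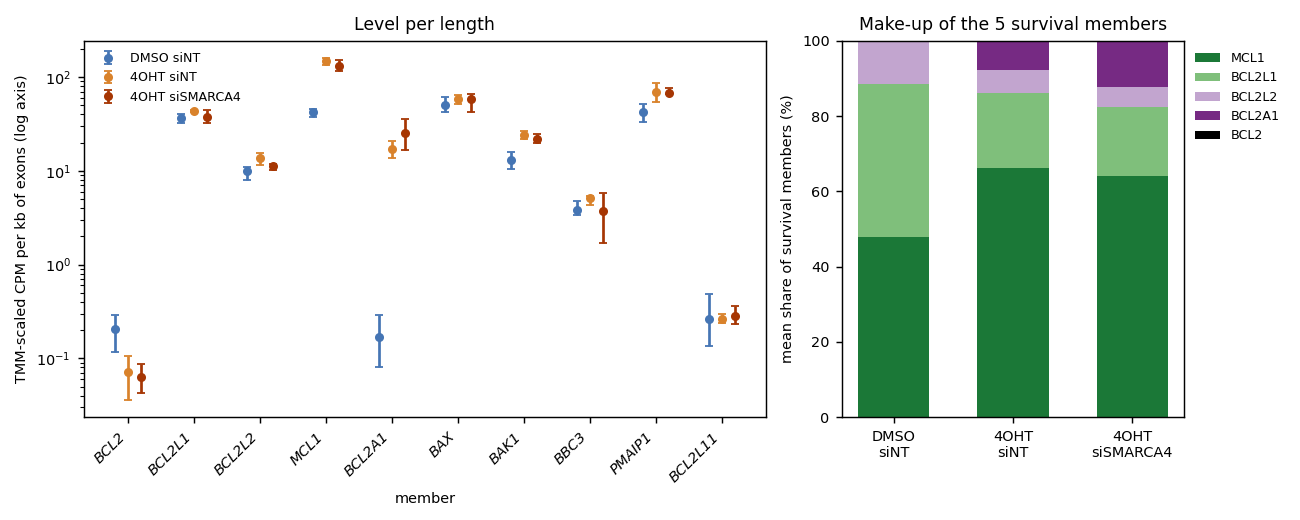
Left, mean TMM-scaled CPM per kb of exons (log axis) of each member by group, with bars from the lowest to the highest library. Right, mean share (%) of each of the 5 survival members in their summed level per kb, where MCL1 grows from 47.8% to 66.3% in senescence, BCL2A1 from 0.186% to 7.81%, and BCL2 is too small to be seen.

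The genes whose log2 CPM followed a called member most closely over the 17 libraries were listed as a description, since the libraries share the same 3 groups and such correlations rise with any group difference. BCL2A1 was closest to IL1A (Pearson r = 0.997) and CCL20 (0.995), an inflammatory cytokine and a chemokine. MCL1 was closest to VWA5A (0.995) and ABCA3 (0.994), BAK1 to STX1A (0.988) and PSMD8 (0.985), PMAIP1 to CEP43 and ETNK1 (both 0.963), BCL2 to POLR3B (0.948) and CUL4B (0.944), BCL2L2 to LENG8 (0.929) and CLK2 (0.922), and BCL2L1 to NFS1 (0.878) and GALNT6 (0.873). BCL2L1, the called member that moved least, had the weakest match.

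Around the members, 13 further BCL2 family genes were listed, of which 8 passed the filter. In senescence 5 rose and 1 fell (54.4% of all genes were called), and after knockdown 2 rose and 1 fell (24.2% of all genes). BMF, a BH3-only gene whose protein is tied to the cytoskeleton, rose from 4.55 ± 1.42 CPM in DMSO siNT to 17.5 ± 1.48 in 4OHT siNT (log2 1.94, adjusted p = 2.86e-08) and fell to 8.26 ± 1.56 after knockdown (log2 -1.08, adjusted p = 0.000151), with no overlap in either comparison. BNIP3L, a receptor for the removal of mitochondria, was at 137 ± 17.1, 163 ± 7.55 and 245 ± 36.9 CPM, called higher in both comparisons (log2 0.24, adjusted p = 0.0427, and 0.59, adjusted p = 0.000263). BCL2L13 was called lower in senescence (log2 -0.29) and higher after knockdown (0.17), and BID, BCL2L12 and BNIP3 were called higher in senescence (log2 0.43, 0.37 and 0.34). Against all 4OHT siNT libraries, neither siSMARCA4 number 2 (adjusted p = 0.12) nor number 4 (0.0719) gave the BCL2L13 call. Calls on this list and those that follow were not checked with tags, replicate blocks or libraries left out.

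Downstream of the pore, all 12 listed genes of the apoptosome, the caspases and the released mitochondrial proteins were tested. In senescence 5 rose and 1 fell, which is 6 of 12, near the 54.4% of all genes called. CASP9, the initiator caspase of the apoptosome, rose from 6.45 ± 0.706 to 9.92 ± 0.808 CPM (log2 0.62, adjusted p = 6.59e-06), while CASP6 fell from 15.2 ± 2.36 to 6.01 ± 0.584 (log2 -1.34, adjusted p = 1.91e-08). HTRA2, AIFM1, ENDOG and DFFA were the others that rose. After knockdown 3 of 12 were called, near the 24.2% of all genes: CASP6 (log2 0.58, adjusted p = 0.00144) and CASP9 (0.26, adjusted p = 0.0279) rose, and APAF1, the scaffold of the apoptosome, fell from 31.7 ± 2.62 to 25.2 ± 3.15 CPM (log2 -0.33, adjusted p = 0.0134). Against 4OHT siNT, siSMARCA4 number 2 gave 2 of the 12 higher and 1 lower. Number 4 gave 1 higher and 1 lower, so the CASP6 and CASP9 rises were not both called with it.

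Of the inhibitor of apoptosis proteins, 5 of 6 genes were tested. In senescence 2 rose and 1 fell, and after knockdown 3 rose and 0 fell, with 54.4% and 24.2% of all genes called. BIRC3, a ubiquitin ligase in NF-kB signalling, was at 5.07 ± 1.11 CPM in DMSO siNT, 17.2 ± 2.26 in 4OHT siNT and 61.4 ± 6.33 in 4OHT siSMARCA4, without overlap at either step (log2 1.76, adjusted p = 2e-09, and 1.84, adjusted p = 5.5e-08). BIRC2, its close relative, rose after knockdown, from 127 ± 21.0 to 200 ± 17.2 CPM (log2 0.66, adjusted p = 0.000998; in senescence 0.09, adjusted p = 0.583). BIRC5, which encodes survivin, a protein of dividing cells, fell from 37.7 ± 5.71 to 1.05 ± 0.193 CPM in senescence (log2 -5.15) and was at 2.00 ± 0.759 after knockdown (log2 0.91, adjusted p = 0.00486). Against 4OHT siNT, siSMARCA4 number 2 gave this BIRC5 call (adjusted p = 0.00538) and number 4 did not (0.0688). XIAP, a direct inhibitor of caspases, rose in senescence (log2 0.30, adjusted p = 0.0471).

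Of 8 outer membrane partners and genes of MCL1 turnover, VDAC1 rose in senescence (log2 0.23, adjusted p = 0.016) as the 1 gene called, where 54.4% of all genes were. After knockdown edgeR called 0 of 8, where 24.2% of all genes were called. The unadjusted p was under 0.05 for 3 of 8, and for 7050 of the 19473 genes tested. The ubiquitin ligases of MCL1 on this list, HUWE1, FBXW7 and MARCHF5, were called in neither comparison, and the MCL1 deubiquitinase USP9X was called in neither as well. Of 8 tested transcription factors known to act on family genes, NFKB1 (log2 0.97), DDIT3 (0.88) and RELA (0.44) rose in senescence, and E2F1 (log2 -1.05) and FOXO3 (-0.27) fell, against 54.4% of all genes called. After knockdown REL (log2 0.64, adjusted p = 0.01) and ATF4 (0.35, adjusted p = 0.00326) rose and no factor fell, against 24.2% of all genes. Against 4OHT siNT, REL was called with siSMARCA4 number 4 (adjusted p = 0.0193) and not with number 2 (0.0791). ATF4 was called with number 2 (adjusted p = 0.000878) and not with number 4 (0.0809).

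**Figure D4:**
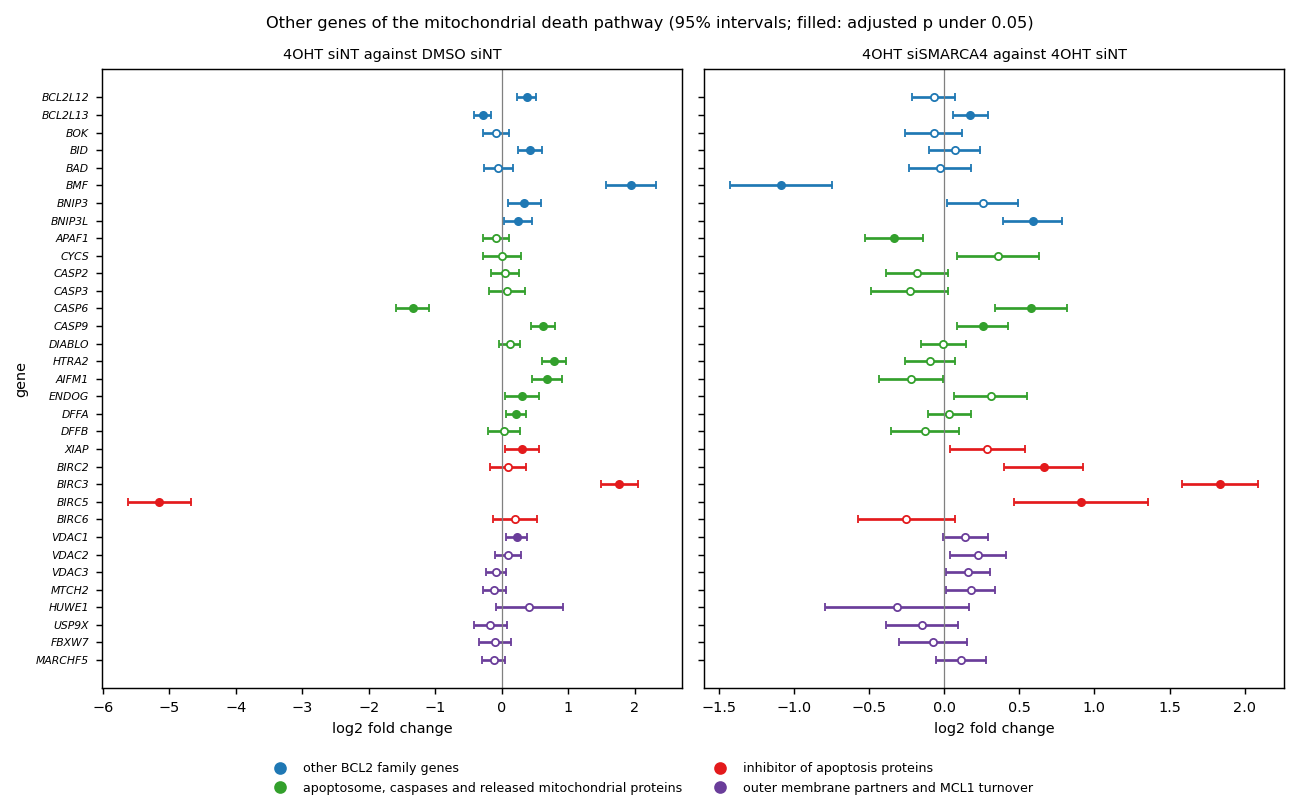
Log2 fold changes (horizontal axes, with different ranges) and 95% intervals of the tested genes around the family in senescence and after SMARCA4 knockdown, coloured by list and filled where the adjusted p was under 0.05. BMF at 1.94 and -1.08 moves in opposite directions, BIRC3 at 1.76 and 1.84 moves the same way in both, and BIRC5 lies at -5.15 in senescence.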

How the data were processed

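Directional RNA-seq of polyadenylated RNA was analysed from 17 libraries. For each, the authors deposited expected counts, whole-number estimates of read pairs per gene and repeat locus, without normalisation. Before deposit the authors trimmed reads (Cutadapt 4.7), aligned them to GRCh38 (HISAT2 2.2.1) and counted with TElocal by strand, dividing pairs with several alignments among them.

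Genes and 1026 repeat subfamilies were kept by filterByExpr (minimum count 10, minimum total 15) and fitted over all 17 libraries with 1 term per group (edgeR 4.0.16, TMM, quasi-likelihood test, Benjamini-Hochberg over genes). The fit was tested on simulated counts. Intervals are 95%. DESeq2, other filters, libraries left out, replicate blocks, tags and siRNA numbers were alternatives for the members and for counts over all genes. Positions, lengths and overlaps came from GENCODE 44, a later annotation than the one counted. The text names all members, genes called on the surrounding lists, SMARCA4 and the 2 genes closest to each called member. Some MCL1 turnover genes, cell type markers and genes that overlap members are named as well, called or not. Members and lists were chosen with earlier results of these data known. Some listed items are not reported here. A planned search of protein sequences was not run.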

Additional observations from a re-analysis of the deposited data

Results flagged for a closer look

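PMAIP1 in the 4OHT siSMARCA4 library 4-3V was the highest of its group at 168 CPM, and its gap to the next library was 0.714 of the range of the 6 libraries, above the critical value of 0.625 for a sample far from the others. It was the only such case in 30 groups of libraries (10 members in 3 groups), and chance alone flags about 1 group in 20 at this level.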

How the results depend on the processing

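The 7 members called in senescence became 5 to 9 under the other settings and 6 to 8 with 1 library left out, and the 5 called between 4OHT siSMARCA4 and DMSO siNT became 5 to 7. The 3 called after knockdown became 1 without the filter on low counts, 0 with V or VM as a covariate, 0 with a replicate block by tag, 2 with a replicate block by digit, and 0 to 3 with 1 library left out, and were 0 without 4OHT siNT 4-1VM, 4-2VM or 4-3VM. The cause was not tested. Deviations of same-tag libraries from their group means correlated at r from -0.45 to 0.53 (16 pairs, median 0.079, 8 over 0.1). Other pairs had a median r of -0.030. These correlations cannot decide whether the tags pair the samples, since a tag can occur more than once in a group. The tags were not entered as pairs in the fit reported above. Libraries of different tags also reached r of 0.606 (DMSO siNT 4-3VM with 4OHT siNT 2-2VM) and -0.526 (DMSO siNT 4-3VM with 4OHT siNT 4-2VM). The block by tag gave 6 and 5 members called in the 2 comparisons with DMSO siNT.

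Of single values, 42 changed sign (counted over members, 3 comparisons and all settings), none of them called in the report and 1 called under its alternative, BCL2L11 in senescence within VM libraries (log2 0.48). The same BCL2L11 value was 0.38 with the replicate block by tag, 0.23 with the V or VM covariate, 0.60 within siRNA number 4, 0.028 with the number as a covariate, and -0.17 to 0.32 with 1 library left out. BAX in senescence was -0.0022 within number 4. After knockdown PMAIP1 was 0.0069 by DESeq2, 0.022 by library totals, 0.024 without the filter, 0.041 with the tag covariate, 0.30 within number 4 and -0.076 to 0.064 with 1 library left out; BAX was -0.0028 with the replicate block by digit, -0.0009 within number 4 and -0.029 to 0.088; BCL2 was 0.076 within VM and 0.52 within number 4; and BCL2L11 was -0.094 with the tag covariate. For siSMARCA4 against DMSO siNT, BCL2L1 was -0.028 by library totals, -0.017 within number 4 and -0.020 to 0.084; BBC3 was 0.15 with the block by tag, 0.039 within VM and -0.20 to 0.11; BCL2L2 was -0.0005 within VM; BCL2L11 was -0.18 within number 2 and -0.057 to 0.43; and BAX was -0.0031 within number 4. Counts over all genes ranged from 1198 (number 4 only) to 5340 around 4703 after knockdown, and from 1 to 653 around 9 between the siSMARCA4 numbers (DESeq2 227). Low counts limit BCL2, BCL2L11 and BCL2A1 in DMSO siNT.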
